A study of Mus musculus with 27 samples.

Results

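The extracellular matrix of the liver was followed through 38 genes for collagens, other matrix proteins and the contractile stromal cells that lay them down. They were taken as a list of mouse gene symbols and matched to the Ensembl identifiers of the deposited tables through the GENCODE annotation. All 38 were found among 51826 identifiers, and all 38 passed the filter on low counts that left 16428 genes for testing. By role they comprised 5 genes of fibrillar collagens, 4 of collagen VI and XIV, 9 of the basement membrane, 5 of elastic fibres and fibulins, 3 of small leucine-rich proteoglycans, 8 of matricellular and adhesive glycoproteins, and 4 of stromal cells.

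Matrix proteins are secreted and assembled outside the cell. Fibrillar collagens form the rope-like fibres of portal tracts and, in fibrosis, of scar, while the basement membrane is a sheet of collagen IV, laminins, nidogen and perlecan beneath epithelium and around vessels. Matricellular proteins such as periostin and SPARC do not build the scaffold but alter how cells attach to it. In liver most fibrillar collagen is made by hepatic stellate cells and portal fibroblasts, whereas hepatocytes secrete plasma fibronectin and are a source of collagen XVIII.

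RNA came from whole livers of wild-type BALB/c females, an inbred strain, sampled over 1 reproductive cycle, and no transgene or drug was involved. According to the labels the mice were mated at 10 to 12 weeks of age, litters were evened out, and pups were removed after 10 to 14 days of lactation. The groups were age-matched nulliparous animals (NUL, 4 mice), mice on day 10 of lactation (LAC, 3 mice), and mice killed 2 days (ID2, 3 mice), 4 days (ID4, 4 mice), 6 days (ID6, 6 mice), 8 days (ID8, 3 mice) or 4 weeks (REG, 4 mice) after the pups were removed. ID stands for involution day and REG for regressed. Each library carries its own number, taken here as an animal, and animals are named by their titles, such as NUL_226. Litters, cages and days of collection are not given, so p-values measure the spread between these animals.

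Libraries held 41120650 to 75664540 estimated counts, and the summed TPM (a length-scaled level with the same total in every library) of the hepatocyte markers Alb, Ttr, Apoa1 and Cyp2e1 was at least 63322 in every animal. One library stood apart: in ID2_31 the 8 markers of pancreatic acinar cells summed to 1975 TPM, against 8.39 to 137 TPM in the other 26. Animals numbered under 200 made up 2 of 3 in ID2, 2 of 4 in ID4 and all 3 in ID8. Within ID8 the number range therefore cannot be compared, and an adjustment of ID8 for it rests on the ID2 and ID4 animals. Comparisons among NUL, LAC, ID6 and REG lie wholly within the numbers from 200 upwards.

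Per unit of transcript length the matrix genes spanned a wide range of levels. Col18a1, whose protein is cut to release endostatin, averaged 309 TPM over the 27 animals and made up 29.4% of the TPM of all 38 genes. Fn1, the gene for fibronectin, followed with 276 TPM, or 26.3%. Ecm1, a secreted glycoprotein that binds other matrix proteins, averaged 148 TPM. Decorin (Dcn), a proteoglycan that coats collagen fibrils, averaged 103 TPM.

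Biglycan (Bgn), a close relative of decorin, and Sparc, a collagen-binding glycoprotein, came next with 41.2 and 38.9 TPM. The most abundant gene of a fibrillar collagen was Col3a1 with 9.52 TPM, followed by Col1a2 with 3.66 TPM and Col1a1 with 1.41 TPM. At the bottom stood Thbs1 (thrombospondin 1) with 0.203 TPM and Tnc (tenascin C) with 0.155 TPM, backed by as few as 22 and 15 estimated counts in a library. The largest counts were those of Fn1, up to 154839 in a library. Fold changes of the lowest genes are correspondingly imprecise.

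Differences among the 7 stages were tested jointly, with edgeR's quasi-likelihood test and Benjamini-Hochberg adjustment over all 16428 genes. A gene was called at an adjusted p under 0.05. Of the 38 genes 17 were called, where 27% of all tested genes were. Called genes made up 6 of 8 matricellular and adhesive glycoproteins (Tgfbi, Postn, Mgp, Sparc, Ecm1 and Fn1), 2 of 3 proteoglycans (Dcn and Bgn), 3 of 9 basement membrane genes (Lamc1, Col4a1 and Col18a1), 2 of 5 fibrillar collagen genes (Col3a1 and Col5a2), 2 of 5 elastic fibre genes (Fbln5 and Efemp1), 1 of 4 in the collagen VI and XIV list (Col14a1) and 1 of 4 stromal genes (Reln). The smallest adjusted p values were those of Tgfbi (edgeR adjusted p = 2.19e-06), Lamc1 (edgeR adjusted p = 0.00106) and Postn (edgeR adjusted p = 0.00178). The number was 10 when LAC_200 or LAC_213 was left out.

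The broadest change was in lactation. Against NUL, 16 of the 38 genes were lower in LAC and none was higher, while 6% of all tested genes were called lower and 5.19% higher. The fitted log2 fold change was below 0 for 33 of 38 genes, with a median of -0.58, against -0.01 over all tested genes. In 13 of the 38 every LAC animal lay below every NUL animal, which held for 11.2% of all tested genes. The count of 16 fell to 9 when LAC_213 was left out and to 7 in the 5 animals of these groups that had been sequenced in 2 runs, all lower. It rose to 24 without NUL_221, whose matrix genes were the lowest of NUL in 31 of 38 cases. The calls of Efemp1, Dcn, Sparc, Postn, Tgfbi and Reln were lost in no alternative. Those of Col3a1, Col14a1, Bgn, Col6a2, Col6a3, Lamb1 and Mgp were lost in a fit of these groups alone and, with those of Ecm1 and Acta2, in the animals sequenced in 2 runs.

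**Figure D1:**
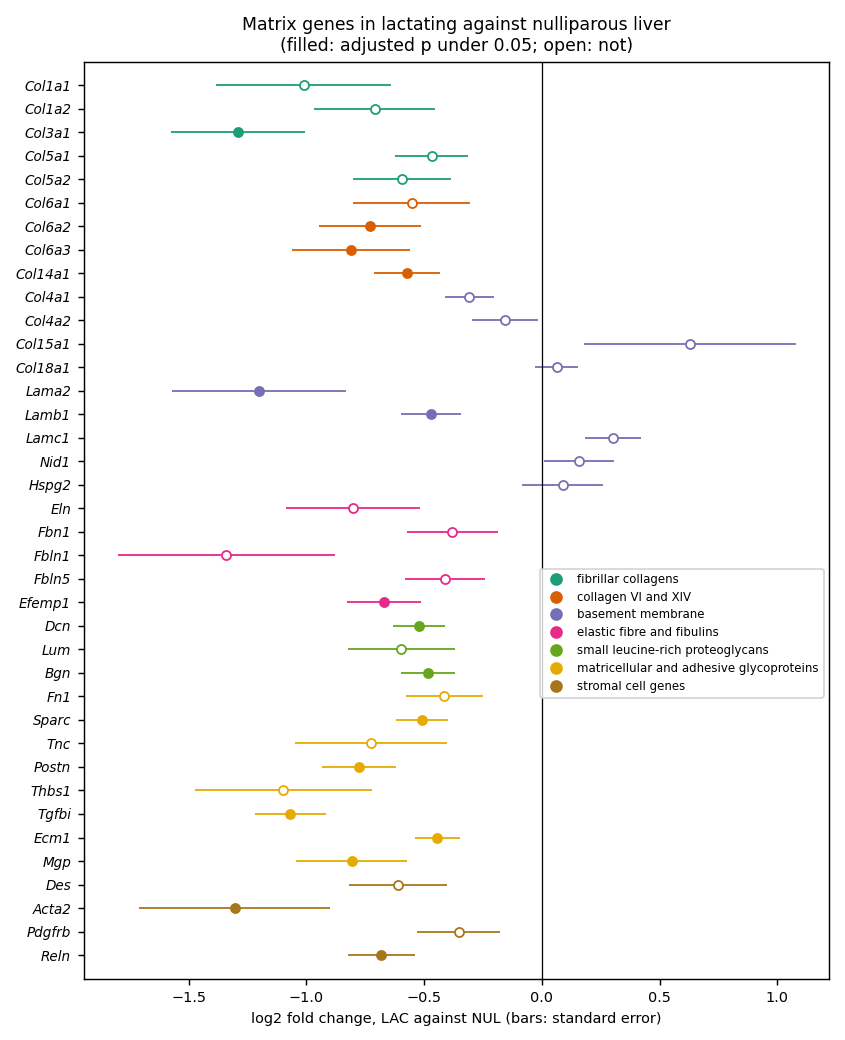
Log2 fold change of each of the 38 genes in LAC (n = 3) against NUL (n = 4), with bars for the standard error; colours mark the role lists and filled points the 16 genes with an adjusted p under 0.05. All filled points lie left of 0, and the 5 points right of 0 are all basement membrane genes and open.

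Fibrillar collagen genes were lower in LAC in 5 of 5 cases by fitted value, and 1 of them was called. Their median log2 fold change was -0.71 (-0.42 without NUL_226 and -1.01 without LAC_240). Col3a1 (ENSMUSG00000026043, chr1:45311538-45349706, plus strand) encodes the chain of type III collagen, the reticular fibre of the sinusoids. As CPM, the count in a scaled library of fixed size, it measured 32.7, 29.0, 64.2 and 50.9 in the 4 NUL animals and 13.2, 12.4 and 28.7 in the 3 LAC animals. The groups did not overlap, although the highest LAC value, that of LAC_240, came close to the lowest NUL value. The difference was called (log2 fold change -1.29 ± 0.28 (SE), edgeR adjusted p = 0.00498).

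Col1a1 (ENSMUSG00000001506, chr11:94936224-94953042, plus strand) and Col1a2 encode the chains of type I collagen, the main fibre of scar tissue. Col1a1 stood at 6.26, 4.82, 13.4 and 9.94 CPM in NUL and 2.35, 2.53 and 7.91 CPM in LAC. Here LAC_240 lay inside the NUL range and the difference was not called (log2 fold change -1.01 ± 0.37 (SE), edgeR adjusted p = 0.0876). Col1a2 gave 18.5 ± 8.303 CPM in NUL (SD, n = 4) and 11.3 ± 3.64 CPM in LAC (n = 3), also not called (edgeR adjusted p = 0.0796). The type V genes, whose product starts fibril assembly, had log2 fold changes of -0.47 (Col5a1) and -0.60 (Col5a2), and neither was called.

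Collagen VI forms beaded filaments beside basement membranes, and collagen XIV decorates the surface of fibrils. Of these genes 3 of 4 were called lower in LAC. Col14a1 read 79.8, 69.0, 109.9 and 97.4 CPM in NUL and 61.01, 49.6 and 69.0 CPM in LAC, so that the highest LAC value and the lowest NUL value nearly met (log2 fold change -0.57 ± 0.14 (SE), edgeR adjusted p = 0.00782). Col6a2 fell from 6.05 ± 2.18 to 3.64 ± 1.27 CPM and Col6a3 from 7.22 ± 2.42 to 4.11 ± 2.02 CPM (SD, n = 4 and n = 3), with LAC_240 inside the NUL range for both. Both calls were lost without NUL_227, LAC_200, LAC_213 or NUL_226, the last being the animal with the highest value of its group in 28 of the 38 genes. That of Col6a3 was also lost with no low-count filter and with limma on either TPM scale, and that of Col14a1 without LAC_213. Col6a1 was not called (log2 fold change -0.55 ± 0.25 (SE), edgeR adjusted p = 0.167).

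Basement membrane genes did not move as a list. Of 9 genes 5 were above 0 and 4 below by fitted value, with a median log2 fold change of 0.06, and 2 were called lower. With limma on log2(TPM + 1), which differs in model, length scaling and pseudocount, that median was -0.24 and 6 of 9 were below 0. With RLE size factors or DESeq2 it was 0.07 with 4 of 9 below 0, and without LAC_240 it was -0.22 with 7 of 9 below 0. The called genes were Lama2, the laminin alpha-2 chain, with 2.57 ± 0.931 CPM in NUL and 1.12 ± 0.289 CPM in LAC, and Lamb1, the laminin beta-1 chain, with 9.79 ± 1.48 and 7.06 ± 0.379 CPM (SD, n = 4 and n = 3). Leaving out NUL_226, LAC_213 or LAC_240 ended both calls, and NUL_227 or LAC_200 that of Lama2. With no low-count filter and with limma on either TPM scale the Lama2 call was also lost (log2 fold change -0.33 on log2(TPM + 1)).

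Lamc1 (ENSMUSG00000026478, chr1:153218922-153332786, minus strand), the laminin gamma-1 chain shared by most laminins, had the opposite sign in LAC. It measured 20.8, 23.6, 27.2 and 24.2 CPM in NUL and 28.3, 26.9 and 33.3 CPM in LAC, with the lowest LAC value just inside the NUL range. Against NUL the difference was not called (log2 fold change 0.30 ± 0.12 (SE), edgeR adjusted p = 0.103). After weaning the gene was lower than in LAC in every animal of ID2, at 20.2, 21.9 and 23.0 CPM, and of ID6, at 17.8 to 25.5 with a median of 19.0 CPM. Both decreases were called, the first with log2 fold change -0.44 ± 0.13 (SE), edgeR adjusted p = 0.0172, and the second with log2 fold change -0.54 ± 0.11 (SE), edgeR adjusted p = 6.42e-04. The ID2 call was lost without LAC_240 or ID2_224 and with limma on either TPM scale, and the ID6 call in none of the fits that left out an animal.

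Col18a1 (ENSMUSG00000001435, chr10:77052178-77166548, minus strand), the most abundant gene of the list, stayed near its NUL level in LAC. Its values were 1069, 986, 1123 and 1196 CPM in NUL, 1053, 1063 and 1313 CPM in LAC and 1351, 1394 and 1349 CPM in ID2. Every ID2 animal exceeded every NUL animal. That rise was called narrowly (log2 fold change 0.32 ± 0.09 (SE), edgeR adjusted p = 0.0497) and was lost in 7 of 9 other fits and when any of 6 of the 7 animals was left out. In ID6 the gene stood at 1086 to 1178 with a median of 1101 CPM. In ID8 it read 1396, 1194 and 1248 CPM, every animal above every ID6 animal but without a call (log2 fold change 0.20 ± 0.08 (SE), edgeR adjusted p = 0.171).

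Col4a1 and Col4a2, the chains of the collagen IV network, start head to head on opposite strands. RefSeq places their first exons so that 22 bases are shared at chr8:11312805-11312826 of GRCm38.p6, shown here on the plus strand of Col4a2 because reads from these bases cannot be given to 1 gene without strand information.
Col4a1 and Col4a2, shared bases: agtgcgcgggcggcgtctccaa
Col4a1 ranged from 43.8 to 58.6 CPM in NUL and from 34.2 to 47.6 CPM in LAC, and its LAC difference was not called (log2 fold change -0.31 ± 0.10 (SE), edgeR adjusted p = 0.0525). Its lowest stage mean was that of REG, 38.2 ± 2.88 CPM (SD, n = 4), where every animal lay below every NUL animal, again without a call (log2 fold change -0.38 ± 0.10 (SE), edgeR adjusted p = 0.130). Col4a2 went from 30.4 ± 5.14 CPM in NUL to 27.3 ± 7.25 CPM in LAC, also without a call. The remaining genes of the list, Col15a1, Nid1 (nidogen, the linker of laminin and collagen IV) and Hspg2 (perlecan, its large proteoglycan), were called in no comparison.

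Elastic fibres combine elastin with fibrillin microfibrils, and fibulins help assemble them. All 5 of these genes had a negative fitted value in LAC and 1 was called. Efemp1, the gene for fibulin-3, measured 6.54, 5.68, 8.65 and 8.01 CPM in NUL and 4.83, 4.09 and 4.69 CPM in LAC. Every LAC animal lay below every NUL animal (log2 fold change -0.67 ± 0.16 (SE), edgeR adjusted p = 0.00604), and the call was lost in no other fit.

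Fbln5, the fibulin that links elastin to cells, was called by the joint test (edgeR adjusted p = 0.0182) but in no single comparison. Its values were 4.72, 4.53, 6.87 and 6.64 CPM in NUL, 3.81 to 4.27 with a median of 3.90 CPM in ID6 and 3.19, 3.09, 4.39 and 3.41 CPM in REG. All 6 ID6 animals and all 4 REG animals lay below every NUL animal. The REG difference came to log2 fold change -0.69 ± 0.16 (SE), edgeR adjusted p = 0.0727. Eln (elastin), Fbn1 (fibrillin-1) and Fbln1 were not called anywhere, with log2 fold changes in LAC of -0.80, -0.38 and -1.34. Fbln1 had the most negative estimate of the 38 genes but only 18 to 131 estimated counts a library, and its adjusted p was 0.0592 by edgeR.

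Small leucine-rich proteoglycans bind collagen fibrils and set their spacing. Of 3 genes 2 were called lower in LAC. Dcn stood at 141, 131, 154 and 146 CPM in NUL and 98.6, 106 and 94.2 CPM in LAC, without overlap (log2 fold change -0.52 ± 0.11 (SE), edgeR adjusted p = 0.00244). Bgn gave 74.0, 64.8, 107 and 82.3 CPM in NUL and 60.3, 54.3 and 61.2 CPM in LAC, again without overlap (log2 fold change -0.48 ± 0.11 (SE), edgeR adjusted p = 0.00601). Lumican (Lum) was not called (log2 fold change -0.60 ± 0.23 (SE), edgeR adjusted p = 0.0937). Summed over the list, TPM in LAC was 64.8% of the NUL mean.

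Matricellular and adhesive glycoproteins held the largest share of calls after collagen VI and XIV and the proteoglycans, 5 of 8, all lower in LAC. Tgfbi (ENSMUSG00000035493, chr13:56609523-56639562, plus strand), a TGF-beta-induced protein that bridges collagens and integrins, showed the clearest separation. It measured 26.1, 25.8, 37.6 and 29.7 CPM in NUL and 13.9, 14.9 and 13.8 CPM in LAC. The highest LAC value was well under the lowest NUL value (log2 fold change -1.07 ± 0.15 (SE), edgeR adjusted p = 3.66e-05). None of the alternatives removed this call.

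Postn (ENSMUSG00000027750, chr3:54361109-54391037, plus strand), the gene for the matricellular protein periostin, gave 16.1, 13.7, 19.5 and 12.4 CPM in NUL and 9.78, 8.67 and 8.59 CPM in LAC. Sparc read 69.6, 60.4, 76.1 and 74.0 CPM in NUL and 48.5, 46.4 and 52.7 CPM in LAC. Ecm1 (ENSMUSG00000028108, chr3:95734147-95739569, minus strand) read 148, 123, 154 and 143 CPM in NUL and 100.04, 108 and 105 CPM in LAC. None of the 3 genes overlapped between the groups. Their log2 fold changes were -0.78, -0.51 and -0.44, with edgeR adjusted p values of 0.00170, 0.00285 and 0.00252.

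Mgp, matrix Gla protein, an inhibitor of calcification, averaged 5.89 TPM over the 27 animals but rests on only 40 to 188 estimated counts a library. It measured 1.73, 1.19, 2.15 and 1.70 CPM in NUL and 0.690, 1.01 and 1.19 CPM in LAC, with 1 LAC animal just above the lowest NUL animal (log2 fold change -0.81 ± 0.24 (SE), edgeR adjusted p = 0.0234). The call was lost without NUL_226, LAC_200 or LAC_213. Fn1, at 1535, 1594, 2065 and 1987 CPM in NUL and 1187, 1138 and 1716 CPM in LAC, overlapped through LAC_240 and was not called (log2 fold change -0.41 ± 0.16 (SE), edgeR adjusted p = 0.106). Tnc and Thbs1 had log2 fold changes of -0.72 and -1.10 and were not called.

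The stromal genes mark the cells rather than the matrix: Des (desmin) and Acta2 (smooth muscle actin) are cytoskeletal, Pdgfrb is the growth factor receptor of pericytes, and Reln encodes reelin, a secreted glycoprotein that stellate cells make in liver. Reln (ENSMUSG00000042453, chr5:21884454-22344702, minus strand) stood at 71.5, 57.6, 85.3 and 94.7 CPM in NUL and 43.7, 45.2 and 55.5 CPM in LAC, without overlap (log2 fold change -0.68 ± 0.14 (SE), edgeR adjusted p = 0.00221). Acta2 gave 3.44, 3.96, 2.88 and 4.91 CPM in NUL and 1.14, 1.05 and 2.42 CPM in LAC, also without overlap (log2 fold change -1.30 ± 0.41 (SE), edgeR adjusted p = 0.0392), though leaving out any of 5 animals, or the low-count filter, ended that call. Des (-0.61) and Pdgfrb (-0.35) were not called.

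Upstream sequence is shown for the 4 genes called in LAC that had the smallest joint adjusted p among those whose 250 bases before the RefSeq start overlap no annotated exon. RefSeq (GRCm38.p6) gave 250-base windows for 27 of the 38 genes, 33 windows in all, counting those that overlap an exon. Searched on both strands were the TATA box TATAAA, the GC box GGGCGG and the CCAAT box CCAAT, and capitals mark matches to the first and second of these. The windows are Postn, chr3:54360857-54361106, plus strand; Ecm1, chr3:95739570-95739819, minus strand; Reln, chr5:22344706-22344955, minus strand; and Col3a1, chr1:45311288-45311537, plus strand.
Postn: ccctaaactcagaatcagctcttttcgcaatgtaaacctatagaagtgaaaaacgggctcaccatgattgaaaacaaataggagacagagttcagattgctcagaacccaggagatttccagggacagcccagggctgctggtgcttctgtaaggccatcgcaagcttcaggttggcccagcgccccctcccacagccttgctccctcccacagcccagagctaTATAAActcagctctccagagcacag
Ecm1: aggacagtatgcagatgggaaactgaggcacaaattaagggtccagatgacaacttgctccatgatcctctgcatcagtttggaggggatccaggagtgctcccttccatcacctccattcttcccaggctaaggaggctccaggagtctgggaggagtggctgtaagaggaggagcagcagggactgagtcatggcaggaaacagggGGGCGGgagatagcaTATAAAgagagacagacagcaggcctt
Reln: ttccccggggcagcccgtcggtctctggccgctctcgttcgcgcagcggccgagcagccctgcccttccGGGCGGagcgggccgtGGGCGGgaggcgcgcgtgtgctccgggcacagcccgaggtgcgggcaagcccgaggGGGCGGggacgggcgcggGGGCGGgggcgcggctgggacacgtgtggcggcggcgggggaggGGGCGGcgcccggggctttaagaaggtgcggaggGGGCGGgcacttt
Col3a1: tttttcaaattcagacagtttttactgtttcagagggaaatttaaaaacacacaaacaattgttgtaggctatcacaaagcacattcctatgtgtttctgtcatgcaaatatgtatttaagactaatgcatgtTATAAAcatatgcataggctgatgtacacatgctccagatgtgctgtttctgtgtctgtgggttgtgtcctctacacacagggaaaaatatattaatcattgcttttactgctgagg
Postn, Ecm1 and Col3a1 each hold a TATAAA, with that of Postn and Ecm1 close to the start and that of Col3a1 further upstream. Reln holds GC boxes only, and Ecm1 holds 1 GC box beside its TATAAA. The other RefSeq start of Postn, further upstream, holds neither in its window. Over the matrix genes, TATAAA was found in 15.2% of the 33 windows and in 12.4% of all 32851 windows, GGGCGG in 60.6% and 32.7%, and CCAAT in 21.2% and 33.8%. These are matches of letters, not measured binding.

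**Figure D2:**
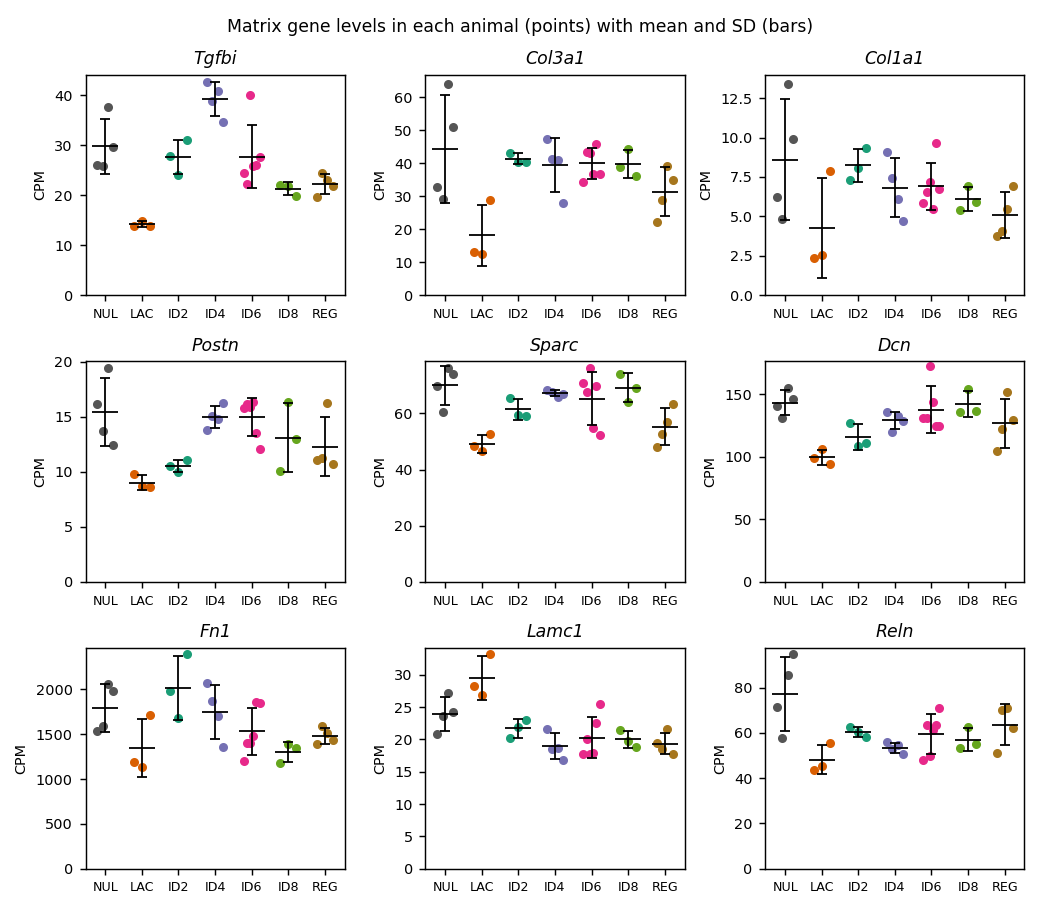
CPM of 9 matrix genes in each of the 27 animals (points) at the 7 stages, with the mean (long line) and SD (bars), each axis starting at 0. LAC is the lowest stage for Tgfbi, Col3a1, Postn, Sparc, Dcn and Reln, Lamc1 is highest in LAC, and in Col1a1 and Fn1 1 LAC animal lies apart from the others.

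Part of the list stood higher 2 days after weaning than in lactation. In ID2 against LAC 8 genes were higher and 1, Lamc1, was lower, where 8.48% of all tested genes were called higher and 7.64% lower. The 8 were Col3a1, Col6a2, Col14a1, Fn1, Tgfbi, Mgp, Des and Acta2. Of these, 6 had been called lower in LAC than in NUL, while Fn1 and Des had not. Both comparisons use the same 3 LAC animals, so they are not independent. In 18 of the 38 every ID2 animal lay above every LAC animal, which held for 18.1% of all tested genes. Leaving out LAC_200 or LAC_213 left 2 calls, leaving out ID2_31, the library with pancreatic markers, or ID2_39 left 4, and leaving out LAC_240 gave 13. With the number range as a covariate 2 calls were left.

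Tgfbi was the gene whose ID2 rise was lost in no alternative. It read 27.9, 24.1 and 31.1 CPM in ID2, so that 2 days after weaning it overlapped NUL (log2 fold change 0.96 ± 0.16 (SE), edgeR adjusted p = 1.95e-04 against LAC). Col3a1 read 43.2, 40.3 and 40.4 CPM in ID2, all above the LAC animals (log2 fold change 1.19 ± 0.30 (SE), edgeR adjusted p = 0.00957). The Col3a1 call was lost without LAC_200 or LAC_213, with the number range as a covariate and in a fit of these groups alone. Fn1 read 1984, 1677 and 2391 CPM in ID2, where ID2_31 fell just below LAC_240 (log2 fold change 0.58 ± 0.17 (SE), edgeR adjusted p = 0.0220). The Fn1 call was lost in the same fits as that of Col3a1 and also without ID2_39. Acta2 rose by 1.44 on the log2 scale (edgeR adjusted p = 0.0241), with values of 3.20, 5.96 and 3.298 CPM, the highest being that of ID2_31. In that library, which stood apart in pancreatic markers, the summed smooth muscle markers were also the highest of ID2, 11.2 TPM against 6.56 and 8.25 TPM, and their part in the result was not tested. The Acta2 call was lost without ID2_31 (log2 fold change 1.08), without LAC_200 or LAC_213 and with the number range as a covariate.

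Postn and Dcn lay between LAC and NUL in ID2. Postn read 10.5, 9.94 and 11.1 CPM in ID2, only slightly above LAC and below every NUL animal. Against NUL it was called lower (log2 fold change -0.55 ± 0.16 (SE), edgeR adjusted p = 0.0467), and with Col18a1, described above, it made up the 2 calls in ID2 against NUL, where 3.24% of all tested genes were called. Like that of Col18a1, the call of Postn was lost in 7 of 9 other fits and without any of 6 of the 7 animals. Dcn, at 127, 109 and 111 CPM, lay above every LAC animal and below every NUL animal, the latter without a call (log2 fold change -0.31 ± 0.11 (SE), edgeR adjusted p = 0.131).

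In ID6 against the same LAC animals 10 genes were higher and 1, Lamc1, was lower, where 8.44% and 7.96% of all tested genes were called. Of the 10, 7 belonged to the 8 matricellular and adhesive glycoproteins (Postn, Tgfbi, Mgp, Sparc, Ecm1, Tnc and Thbs1), and the others were Col3a1, Col5a2 and Dcn. ID6 and ID2 were not compared directly. The calls of Col3a1, Dcn, Sparc, Postn, Tgfbi, Mgp and Lamc1 were lost in no alternative, while those of Tnc and Thbs1 were lost in 11 and 8 of them, that of Col5a2 without LAC_200, LAC_213 or ID6_230 and that of Ecm1 without LAC_200 or LAC_240.

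Postn reached 12.1 to 16.3 with a median of 15.8 CPM in ID6 (log2 fold change 0.73 ± 0.15 (SE), edgeR adjusted p = 8.01e-04 against LAC). Mgp reached 1.78 to 2.72 with a median of 2.15 CPM, with every animal above every LAC animal (log2 fold change 1.21 ± 0.22 (SE), edgeR adjusted p = 2.92e-04). Dcn stood at 124 to 172 with a median of 131 CPM (log2 fold change 0.47 ± 0.10 (SE), edgeR adjusted p = 0.00183). Sparc stood at 52.5 to 76.1 with a median of 68.7 CPM, where the lowest ID6 animal lay just under the highest LAC animal (log2 fold change 0.41 ± 0.10 (SE), edgeR adjusted p = 0.00561).

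Tgfbi had its highest stage mean in ID4. There it read 42.7, 38.9, 40.9 and 34.7 CPM, in ID6 22.3 to 40.1 with a median of 26.0 CPM, in ID8 22.1, 21.9 and 19.8 CPM and in REG 19.7, 24.4, 23.0 and 21.8 CPM. All ID4 animals but 1 lay above the highest NUL animal, and all ID8 and REG animals lay below the lowest. The ID4 mean exceeded NUL without a call (log2 fold change 0.40 ± 0.13 (SE), edgeR adjusted p = 0.0880). Its decrease from ID4 to ID6 was the 1 call among the 38 genes in that comparison (log2 fold change -0.50 ± 0.12 (SE), edgeR adjusted p = 0.0101), where 8.53% of all tested genes were called. With the number range as a covariate that call was not made.

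Kupffer cell markers, taken as the summed TPM of Clec4f, Vsig4, Cd5l, Timd4 and Adgre1, also changed between stages. Their sum was 258 ± 20.5 in NUL, 172 ± 29.5 in LAC and 230 ± 12.3 in ID2 (SD, n = 4, 3 and 3). It was 385 ± 33.3 in ID4, 383 ± 50.5 in ID6, 269 ± 55.4 in ID8 and 271 ± 20.4 in REG (SD, n = 4, 6, 3 and 4). Tgfbi is also expressed by macrophages. The part of these cells in the Tgfbi values was not tested.

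**Figure D3:**
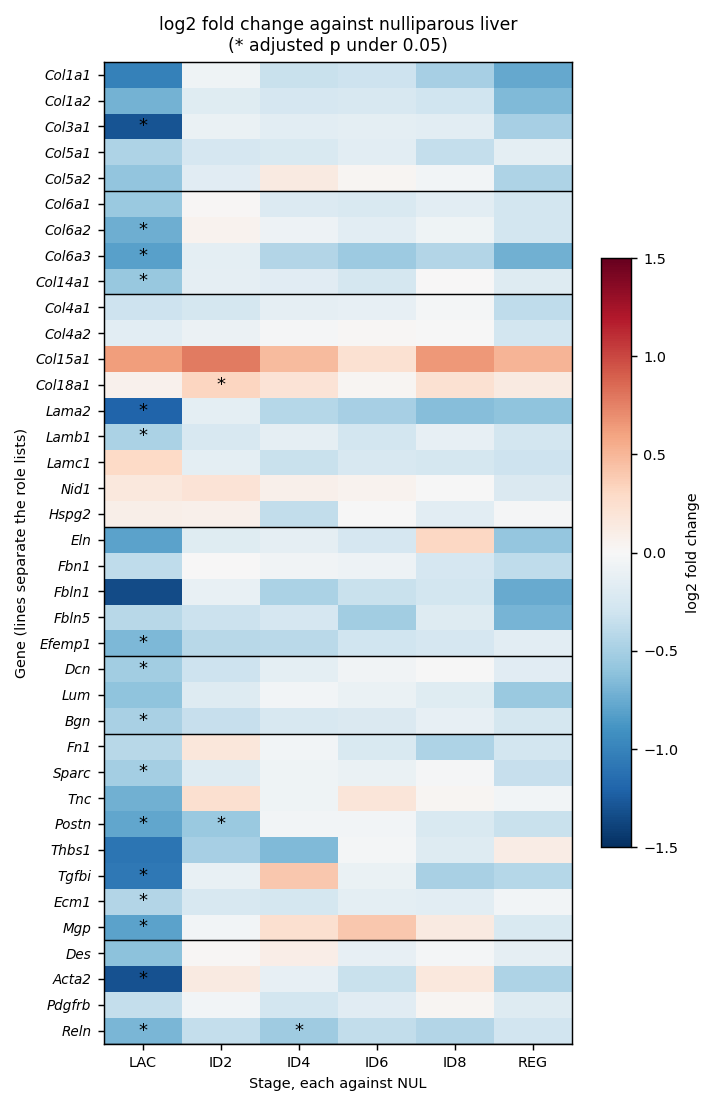
Log2 fold change of each of the 38 genes (rows, grouped by role list) at each of the 6 later stages against NUL (columns), with blue for lower and red for higher. Asterisks mark an adjusted p under 0.05: 16 in LAC, 2 in ID2 and 1 in ID4, and none in ID6, ID8 or REG; all columns share the same 4 NUL animals.

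Reln lay below its NUL mean at every later stage. It read 62.8, 60.5 and 58.1 CPM in ID2, 55.8, 52.7, 54.6 and 50.6 CPM in ID4, 48.1 to 71.1 with a median of 62.5 CPM in ID6, 53.2, 62.8 and 55.0 CPM in ID8 and 51.3, 70.0, 71.0 and 62.0 CPM in REG. All ID4 animals lay below all NUL animals, and this was the 1 call in ID4 against NUL (log2 fold change -0.53 ± 0.13 (SE), edgeR adjusted p = 0.0165), where 4.25% of all tested genes were called. The call was lost without NUL_226, NUL_227 or ID4_215, with limma on either TPM scale (largest limma adjusted p = 0.151) and with the number range as a covariate.

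From day 6 on no matrix gene was called against NUL. The counts were 0 of 38 in ID6, ID8 and REG by edgeR, where 1.08%, 0.499% and 0.0852% of all tested genes were called. At an unadjusted p under 0.05 there were 9, 6 and 17 of 38, where 11.9%, 12.8% and 7.17% of all tested genes passed. DESeq2 called 1 matrix gene in ID6 and 2 in REG, out of 450 and 74 genes in all, and 0 in ID8. ID4 against ID2, ID8 against ID6 and REG against ID8 also gave 0 by edgeR, where 1.49%, 4.12% and 0.0487% of all tested genes were called. There 3, 5 and 5 of 38 had an unadjusted p under 0.05, where 13.9%, 20.5% and 9.02% of all tested genes did. DESeq2 called 1, 0 and 0, out of 518, 1210 and 78 genes in all.

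At 4 weeks after weaning the estimates were mostly below 0 without reaching the threshold. The median log2 fold change of the 38 genes in REG against NUL was -0.28, with 35 of 38 below 0, while the median of all tested genes was 0.00. The corresponding medians were -0.14 in ID2, -0.14 in ID4, -0.15 in ID6 and -0.15 in ID8. Without NUL_226 they were 0.01, -0.03, -0.02 and 0.00, and without NUL_221 they were -0.26, -0.24, -0.25 and -0.23. These medians thus depended on single NUL animals. With the number range as a covariate they were -0.23, -0.23, -0.15 and -0.26. Within REG the animals differed: REG_203 had the lowest value of its group in 30 of 38 genes and REG_234 the highest in 21. Without NUL_226 the REG median was -0.20, and without NUL_221 it was -0.39.

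A few genes show how REG stood. Sparc read 48.1, 52.7, 57.1 and 63.3 CPM in REG against 74.2, 64.0 and 69.2 CPM in ID8, with every REG animal lower and no call (log2 fold change -0.32 ± 0.11 (SE), edgeR adjusted p = 0.363). Col3a1 read 22.2, 28.8, 39.3 and 35.0 CPM in REG, inside and below the NUL range (log2 fold change -0.50 ± 0.25 (SE), edgeR adjusted p = 0.736). Col5a2 read 2.81, 4.52, 6.496 and 4.97 CPM in REG and 7.72, 7.43, 7.25 and 6.03 CPM in ID4, its lowest and highest stages after weaning. Ecm1 was back at 143, 143, 133 and 130.4 CPM, all within the NUL range.

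Called neither by the joint test nor in a pairwise comparison were 13 of the 38: Col1a1, Col1a2, Col5a1, Col6a1, Col4a2, Col15a1, Nid1, Hspg2, Eln, Fbn1, Fbln1, Lum and Pdgfrb. Col1a1, the best known of them, varied from 4.82 to 13.4 CPM among the 4 nulliparous animals. The spread was shared between genes, since NUL_226 was the highest of its group in 28 genes and NUL_221 the lowest in 31, and in LAC the animal LAC_240 was the highest in 29 and LAC_213 the lowest in 24. In ID4 the animal ID4_13 was the highest in 29, and both ID4 animals numbered under 200 averaged higher than the others in 33 of 38 genes, by a median of 0.25 on the log2 scale. In ID2 the corresponding split was 19 to 19.

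Genes that encode chains of the same collagen varied together from animal to animal. Pairs from different collagens were not tested, and Col1a1 also followed genes of other collagens closely, as given below. Over the 27 animals log2(TPM + 1) of Col1a1 and Col1a2 correlated with Pearson's r = 0.92 and Spearman's rho = 0.89 (permutation p = 1e-05 for each, the smallest that 100000 resamples can give). For Col6a1 and Col6a2 r was 0.87 and rho 0.81 (permutation p = 1e-05 for each), and for Col4a1 and Col4a2 r was 0.79 and rho 0.73 (permutation p = 2e-05 and 5e-05). Over these 3 pairs the adjusted p for r was 1.5e-05, 1.5e-05 and 2e-05, and that for rho was 1.5e-05, 1.5e-05 and 5e-05. All tests were two-sided.

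Without the 2 animals farthest from the median of the first gene, r was 0.86, 0.82 and 0.68 in the same order. Within the animals numbered from 200 upwards it was 0.92, 0.89 and 0.81, and within the 7 numbered under 200 it was 0.84, 0.57 and 0.72. With the stage means taken out it was 0.91, 0.86 and 0.76. Col1a1 was the lower of its pair in each of the 27 animals, at 0.196 to 0.473 times the TPM of Col1a2, although type I collagen contains more of the chain that Col1a1 encodes. Col4a1 stood at 1.31 to 1.96 times Col4a2 and Col6a1 at 1.21 to 1.96 times Col6a2.

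**Figure D4:**
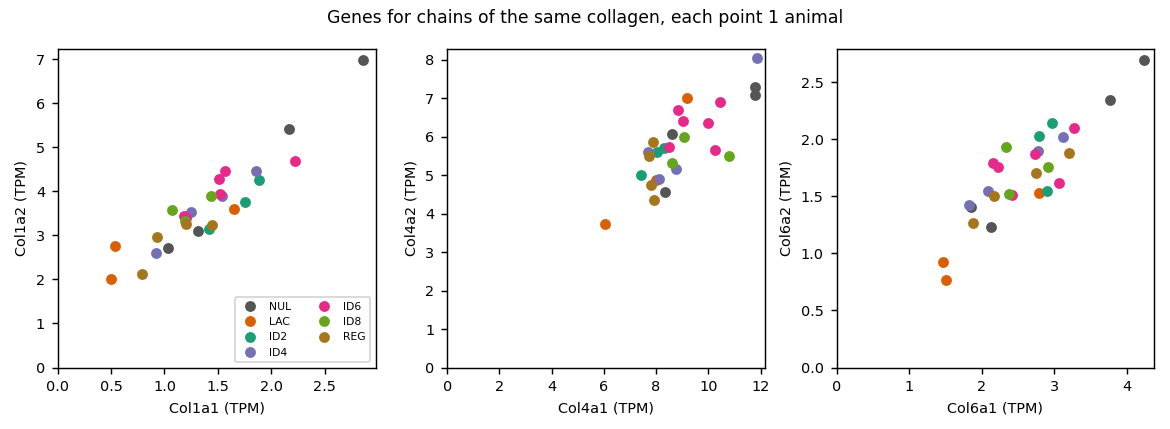
TPM of 3 pairs of genes that encode chains of 1 collagen, each point 1 of the 27 animals and coloured by stage. Points rise together in all 3 panels (r = 0.92, 0.79 and 0.87 on the log2 scale from left to right), with 1 NUL animal at the top of the left panel and LAC_213 at or near the bottom of each.

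Across all 16428 tested genes the patterns most like that of Col1a1, by Pearson's r of the 27 log2 CPM values, were those of Col1a2 (0.93), Col3a1 (0.91), Col6a2 (0.87), Col6a1 (0.86) and Col6a3 (0.86). All 5 are on the list of 38, and the next outside it was Tnxb (0.84), the gene for tenascin X. These values share libraries and depth and are given as a description.

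Genes outside the 38 that make, modify, cut or sense matrix were followed in 5 further lists. The shares to read their counts against are those of all tested genes, 27% called by the joint test and 6% lower and 5.19% higher in LAC than in NUL. Of 26 other matrix genes 11 were called by the joint test, and in LAC 6 were lower and 1, Col5a3, was higher than in NUL. Npnt, the gene for nephronectin, an integrin ligand of basement membranes, fell from 5.03 ± 2.02 CPM in NUL to 0.690 ± 0.181 CPM in LAC (SD, n = 4 and n = 3; log2 fold change -2.86 ± 0.37 (SE), edgeR adjusted p = 2.01e-05). Sparcl1, a relative of Sparc, fell from 15.1 ± 3.60 to 7.74 ± 0.359 CPM (log2 fold change -0.96 ± 0.15 (SE), edgeR adjusted p = 7.51e-05). Nid2, the second nidogen, was not called in LAC and read 9.88 ± 1.51 CPM there and 5.84 ± 0.389 CPM in ID2.

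Of 15 genes of collagen processing 4 were called by the joint test, close to the 27% of all tested genes, and 3 were lower in LAC. Serpinh1, the collagen chaperone HSP47, fell from 15.9 ± 1.60 to 11.7 ± 0.869 CPM in LAC (log2 fold change -0.44 ± 0.12 (SE), edgeR adjusted p = 0.0182). P4ha2, a prolyl hydroxylase subunit, was called lower in ID2 than in LAC, with 8.07 ± 0.722 CPM in LAC and 3.499 ± 0.147 CPM in ID2. Bmp1, the protease that trims procollagen, read 149 ± 12.8 CPM in ID2 and 118 ± 2.65 CPM in ID6. Of 11 proteases and inhibitors 5 were called jointly and 3 were lower in LAC, among them the gelatinase Mmp2 (3.35 ± 0.820 CPM in NUL and 1.299 ± 0.498 CPM in LAC, log2 fold change -1.37 ± 0.26 (SE), edgeR adjusted p = 8.57e-04) and Adamts1, which cuts proteoglycans (10.0 ± 0.988 and 6.23 ± 0.600 CPM). Mmp13, a collagenase, was low, with 0.711 ± 0.259 CPM in NUL and 1.20 ± 0.194 CPM in ID2.

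Of 16 genes of TGF-beta signalling, the main inducer of collagen synthesis in fibrosis, 5 were called jointly, near the 27% of all tested genes, and 3 were lower in LAC. The ligand Tgfb1 read 8.76 ± 0.549 CPM in NUL, 6.25 ± 0.982 CPM in LAC and 8.86 ± 0.991 CPM in ID2, the decrease in LAC being called (log2 fold change -0.49 ± 0.13 (SE), edgeR adjusted p = 0.0135). Ltbp4, which stores latent TGF-beta in the matrix, fell from 45.2 ± 9.48 to 24.1 ± 4.74 CPM (log2 fold change -0.91 ± 0.14 (SE), edgeR adjusted p = 1.18e-04). The signal transducer Smad2 was not called in LAC and read 16.2 ± 1.26 CPM in ID2 and 13.1 ± 0.657 CPM in ID6.

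Of 18 matrix receptor genes 17 were tested, 5 were called jointly, again near 27%, and in LAC 4 were lower and 1, the integrin chain Itgb1, was higher than in NUL. The heparan sulfate proteoglycan Sdc4 fell from 259 ± 51.7 to 133 ± 21.9 CPM (log2 fold change -0.97 ± 0.18 (SE), edgeR adjusted p = 0.00109), and the hyaluronan receptor Cd44 from 5.65 ± 0.586 to 3.49 ± 1.24 CPM (log2 fold change -0.69 ± 0.20 (SE), edgeR adjusted p = 0.0190). Sdc1, the syndecan of epithelial cells, was not called in LAC against NUL and stood at 731 ± 115 CPM in ID2 against 371 ± 34.0 CPM in LAC.

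Markers of cell types moved in LAC alongside the matrix genes. In a whole liver, fewer cells of a type and less RNA per cell cannot be told apart. The shares to read the counts of called markers against are those of all tested genes, 6% lower and 5.19% higher in LAC. The summed TPM of 9 stellate cell markers was 64.2 to 67.0 in the 4 NUL animals and 48.4 to 53.0 in the 3 LAC animals, and 3 of the 9 genes were called lower. For 7 portal fibroblast markers the sums were 13.9 to 19.2 in NUL and 7.94 to 12.8 in LAC, with 3 genes called lower. For 4 smooth muscle markers they were 5.81 to 8.34 and 2.01 to 5.35, with 2 called lower.

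Other cell types shared this direction, so it was not limited to stromal markers. Their counts, too, are to be read against 6% of all tested genes called lower and 5.19% higher. Sinusoidal endothelial markers summed to 204 to 213.1 TPM in NUL and 143 to 163 TPM in LAC (3 of 8 called lower), and Kupffer cell markers to 233 to 283 TPM and 142 to 200.9 TPM (4 of 5 called lower). Bile duct markers summed to 32.9 to 47.7 TPM and 19.4 to 26.7 TPM (2 of 5 called lower). Hepatocyte markers were higher in sum, from 69996 to 91478 TPM in NUL to 123654 to 144968 TPM in LAC, with Alb called higher and Cyp2e1 called lower. Pancreatic acinar markers summed to 25.7 to 31.2 TPM in NUL and 8.55 to 12.8 TPM in LAC, with none of 8 called. Mesothelial markers summed to 2.88 to 3.78 TPM and 2.89 to 3.71 TPM, with none of 5 called. Platelet markers summed to 4.70 to 8.59 TPM and 3.48 to 5.10 TPM and adipocyte markers to 1.36 to 2.20 TPM and 0.720 to 1.25 TPM, with none of the 4 and 3 tested called. The part of these shifts in the matrix values was not tested.

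On the same scale the sums of the role lists in LAC were 48.7% of the NUL mean for the fibrillar collagens, 61.2% for the stromal genes, 61.4% for the elastic fibre genes, 63.3% for collagen VI and XIV, 64.8% for the proteoglycans, 69.4% for the glycoproteins and 98.2% for the basement membrane genes. Differences between lists were not tested. The fibrillar sums overlapped, with 14.4 TPM in LAC_240 and 13.4 TPM in NUL_221. The sum over all 38 genes was 76.1%. In ID2 the sums of the fibrillar collagens, proteoglycans, basement membrane genes and all 38 were 89.2%, 75.3%, 115% and 97.5%, and in REG 72.1%, 87.2%, 108% and 93.1%. The sum over the basement membrane genes is carried by Col18a1. For comparison, the stellate cell markers stood at 75.7% in LAC, 86.6% in ID2 and 98.5% in REG.

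**Figure D5:**
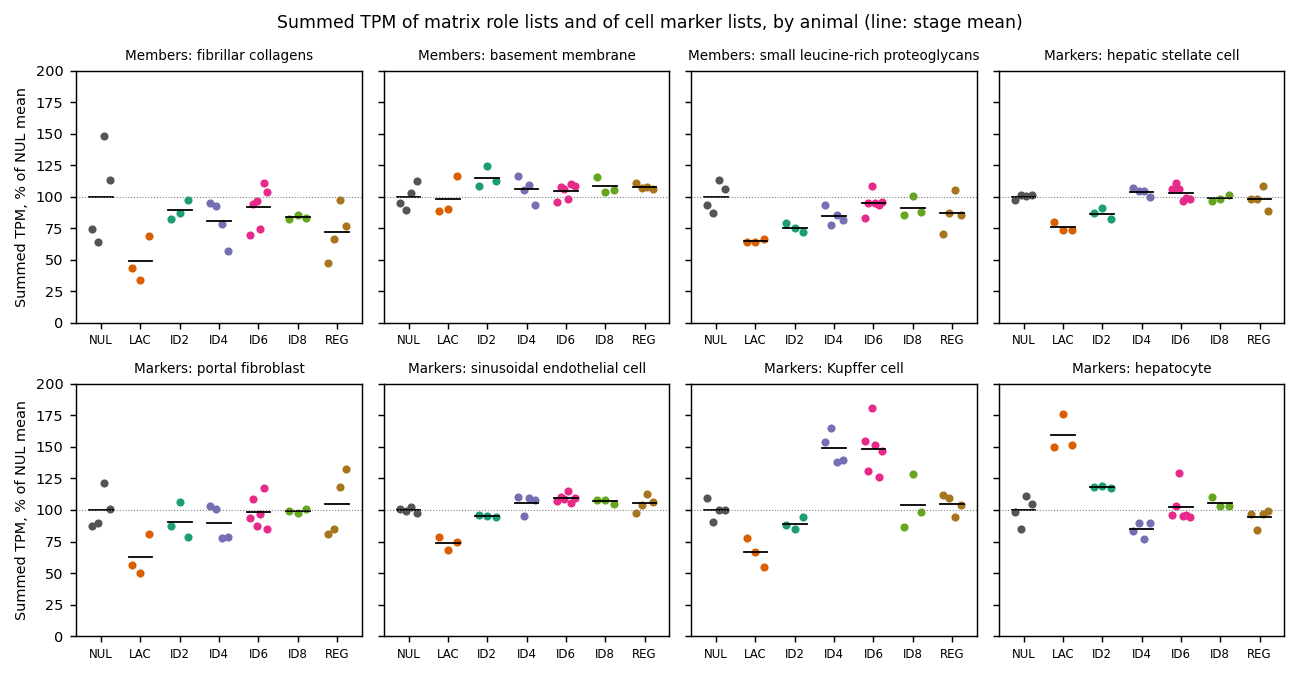
Summed TPM of 3 role lists and 5 cell marker lists in each animal (points) as a percentage of the NUL mean, with a line at each stage mean and a dotted line at 100%. The 3 LAC animals average 48.7% for fibrillar collagens and 75.7% for stellate cell markers, while basement membrane genes average 98.2% and hepatocyte markers 159%.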

How the data were processed

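RNA from 27 livers was measured as 1 bulk library per animal, made with the NEBNext Ultra RNA kit per the labels' protocols. Expected counts per gene are the authors' estimates of the reads from that gene, deposited without normalization between libraries, and the deposited TPM values scale them by transcript length, per the file headers. The submitters' processing notes name STAR 2.6.1a, RSEM 1.3.1 and the build GRCm38, and the use of strand is not given in the sources used here. The authors' readme lists 2 runs for 16 of the libraries. These were 3 of 4 in NUL, 2 of 3 in LAC, 4 of 4 in ID4 and 4 of 6 in ID6. In ID2 and ID8 they were 1 of 3 each, and in REG 1 of 4. The number of runs is thus uneven between stages.

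Members and lists were chosen with earlier results of these data known. Groups come from the titles, and 42 pairs of libraries within groups differed far beyond sampling noise (chi-square per gene at least 45.7). Expected counts were rounded and fitted in edgeR 4.0.16 under R 4.3.3 (filterByExpr by stage, TMM, estimateDisp, robust glmQLFit, glmQLFTest) in 1 model of 7 stages with 12 two-sided pairwise contrasts and a joint test. Adjusted p values are Benjamini-Hochberg values over 16428 genes, called under 0.05. SE comes from the fold change and its F statistic. CPM values use the TMM-scaled library size. The fit was tested on simulated data. Alternatives were DESeq2 1.42.0, limma 3.58.1 on log2(TPM + 1) and log2(TPM + 0.1), other scaling, filters and covariates, and leaving out each animal. Those on sequencing runs were chosen after seeing the data.

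Values by animal, or by stage as a range, mean or median, are given for members with the smallest joint adjusted p, up to 16. The same holds for the most abundant member of each role list. For several of these members only some stages are shown. Up to 3 genes of each pathway list are named by joint adjusted p. The other named members and their stages were chosen after their values were seen.
Reads that fit several genes are divided by estimation. This left a count that was not whole in 6 animals for Fbn1 and in 2 for Fn1, and in none for the other members. Intervals for counts are not given, since reads without molecular identifiers are not independent molecules. The common dispersion was 0.0360.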

Additional observations from a re-analysis of the deposited data

Results flagged for a closer look

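Single animals stood far from the rest of their group in 4 of the 152 combinations of gene and group with enough animals for this check (groups of 4 and 6 animals, Dixon's ratio at the 95% level). Chance alone gives about 5% of such combinations. Tnc was 1.38 CPM in NUL_226, while the other 3 NUL animals lay between 0.564 and 0.684 CPM. Postn was 16.2 CPM in REG_234, against 10.7 to 11.2 CPM in the other REG animals. Tgfbi was 40.1 CPM in ID6_216, a value inside the range of ID4, against 22.3 to 27.6 CPM in the other 5 ID6 animals. Des was 3.89 CPM in REG_214, against 4.60 to 4.69 CPM in the others.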

How the results depend on the processing

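No paired analysis was possible because no title number occurs in more than 1 group. No call of a single gene changed sign under any alternative, and of 40 such calls 14 were lost in none. In LAC against NUL the number called, 16 in the report, was 10 at an adjusted p under 0.01, 9 in a fit of these groups alone and 7 in the animals with 2 runs, and 9 to 24 without 1 animal. In ID2 against NUL the 2 calls became 0 with no low-count filter, with limma on either TPM scale, with the number range or the number of runs as a covariate, at an adjusted p under 0.01 and in a fit of these groups alone, and ranged from 0 to 2 without 1 animal. In ID4 against NUL the 1 call became 2 by DESeq2 and 0 with the number range or at 0.01, and 0 to 2 without 1 animal. In ID6 against NUL DESeq2 gave 1 and leaving out an animal 0 to 2; in REG against NUL these were 2 and 0 to 1. In ID2 against LAC the 9 calls became 2 with the number range and 2 at 0.01, and 2 to 13 without 1 animal. In ID6 against LAC the 11 became 17 by limma on log2(TPM + 0.1) and 7 at 0.01. In ID4 against ID2 DESeq2 gave 1 and a fit of these groups alone 2. In ID6 against ID4 the 1 call became 0 with the number range and 0 at 0.01. In ID8 against ID6 limma gave 1 on both TPM scales. By the joint test the 17 became 8 at 0.01 and 10 to 20 without 1 animal. The causes were not tested. On log2(TPM + 0.1) the median of all genes moved to 0.14 in ID6 against LAC. Tnc, Thbs1, Fbln1 and Lama2 rest on the lowest counts.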
